A study of Mus musculus with 4 samples.

Results

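Eosinophils are granulocytes that store toxic proteins in large granules and respond to the cytokine IL-5 and to eotaxin chemokines. The genes described here are 10 eosinophil genes of the mouse, chosen by name from a table of 14323 genes. They encode granule proteins (Epx, Prg2, Prg3), granule ribonucleases (Ear1, Ear2, Ear6), receptors (Il5ra, Ccr3, Siglec5) and a lipid enzyme (Alox15). All 10 were in the table, 9 under these symbols and 1, Siglec5, under Siglecf. RefSeq gives Siglec5 as an older name of both Siglecf and Siglece, and Siglecf, which encodes the eosinophil surface protein Siglec-F, is the one used here.

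RNA-seq was run on colonies of C57BL/6 mouse blood progenitors. The progenitors were ST-HSCs, short-term haematopoietic stem cells, or MPP2 cells, multipotent progenitors that lean toward the platelet and red cell lineages. Per the labels, 100 cells were grown for 5 to 7 days in 1 ml of 1% methylcellulose with SCF at 25 ng/ml and IL-6, IL-3 and GM-CSF at 10 ng/ml each. The list of cytokines does not include IL-5. The 4 groups were ST-HSC with ethanol, ST-HSC with 4-hydroxytamoxifen (4OHT) at 0.05 µM, MPP2 with ethanol and MPP2 with 4OHT, with 1 library each. In the model mouse 4OHT switches on MLL-ENL, a leukaemia fusion gene, and the ethanol cultures are labelled "control". The construct that carries the fusion, the animals' age and sex and their number are not stated in the labels. No group received 4OHT without the fusion, so an effect of 4OHT itself and one of MLL-ENL cannot be told apart.

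Depth was 12907412 to 14317891 recovered reads per library. Levels are normalized counts, the deposited unit, in which 1 read was worth 0.0695 to 0.0802. A gene entered the tests and the 2-fold counts only if its mean over the 4 libraries was at least 1 normalized count. This level was reached by 11370 genes (79.4%) and by 7 of the 10 eosinophil genes. Ear1, Il5ra and Ccr3 did not reach it. A difference between 1 library and another is given without a p-value. The 4 such comparisons share libraries, so they are not independent. Their intervals are exact 95% intervals that cover counting error only. The effects shared by both cell types, or by both treatments, were tested in an additive model with limma.

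Eosinophil peroxidase (Epx) makes oxidants from halides. Major basic protein (Prg2) and its homologue (Prg3) form the crystalline core of the granule. The Ear genes encode eosinophil-associated ribonucleases of the RNase A family, a family that has expanded by duplication in the mouse. IL-5 acts through the receptor subunit encoded by Il5ra, paired with the common beta chain that IL-3 and GM-CSF receptors also use, and Ccr3 encodes the eotaxin receptor. The transcription factors GATA1, PU.1 and the C/EBP family direct eosinophil development.

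The Ear genes lie on chromosome 14, Ear1 and Ear2 nearer to each other and Ear6 farther off. Ear1 and Ear2 are near copies of each other, which limits what a count for either means. Ear6 is a less similar copy. By GENCODE M21 coordinates (GRCm38, which is mm10), Ear1 spans 43818765 to 43875517 on the minus strand, in a model that overlaps pseudogenes. Ear2 spans 44102654 to 44103534 and Ear6 spans 51853699 to 51854643, both on the plus strand. The first 120 bases of their coding sequences are shown to let the copies be compared. Capitals in Ear1 and Ear6 mark the bases that differ from Ear2, and capitals in Ear2 mark the bases at which either of the others differs.
Ear2: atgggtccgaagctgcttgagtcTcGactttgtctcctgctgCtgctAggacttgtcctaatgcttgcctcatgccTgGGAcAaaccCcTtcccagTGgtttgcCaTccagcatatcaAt
Ear1: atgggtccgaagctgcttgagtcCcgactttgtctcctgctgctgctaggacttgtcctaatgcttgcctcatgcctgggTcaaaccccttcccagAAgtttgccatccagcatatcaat
Ear6: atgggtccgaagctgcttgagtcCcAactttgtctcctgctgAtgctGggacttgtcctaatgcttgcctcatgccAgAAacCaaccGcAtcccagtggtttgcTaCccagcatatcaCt

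Ear1 differs from Ear2 at 4 of these 120 bases and Ear6 at 13. Over 468 aligned coding bases Ear1 and Ear2 were 95.7% identical, with 20 differing bases and an identical run of 96. Ear2 and Ear6 were 88.2% identical, with 55 differing bases and no identical run over 39. Ear10, a further copy that was not among the genes in the table, was 97.0% identical to Ear2 over 471 bases. The similarity extends upstream: of the aligned bases among the 250 before the start site, 99.2% were identical between Ear1 and Ear2 and 93.0% between Ear2 and Ear6.

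The share of a gene's 31-base words that also occur in another gene's transcripts shows how far reads can be told apart. It was 73.6% for Ear1, 60.5% for Ear2 and 8.48% for Ear6. Ear1 and Ear2 share 277 words with each other, 40.6% of Ear1's and 40.2% of Ear2's. Ear6 shares at most 3.92% of its words with any single gene. So the values of Ear1 and Ear2 are uncertain as single genes, while those of Ear6 rest mostly on sequence of its own. Among the other members the share was 0.0% for Epx, Prg2, Prg3 and Alox15, 0.524% for Ccr3, 0.872% for Siglecf and 4.30% for Il5ra.

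**Figure D1:**
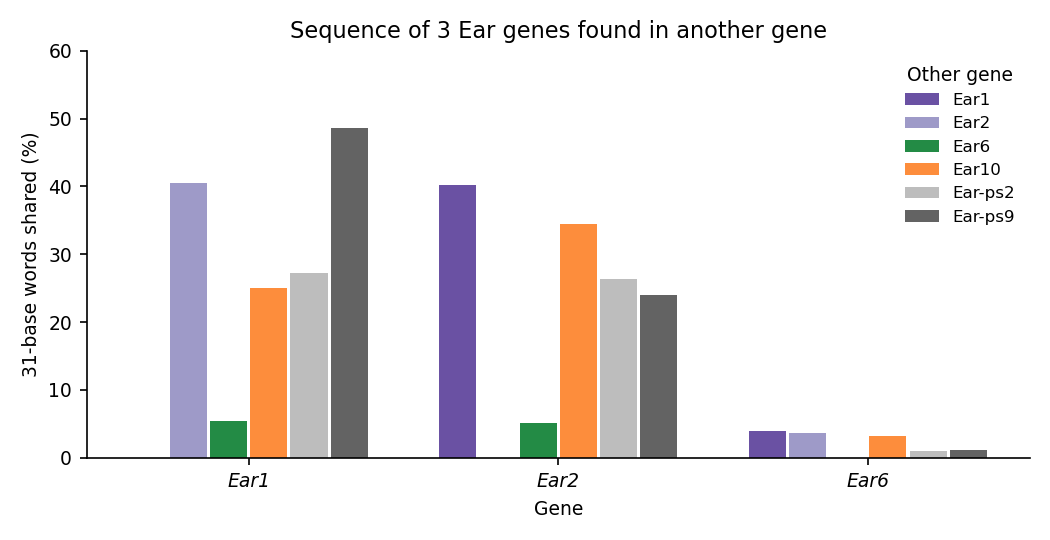
Share of the 31-base words of Ear1, Ear2 and Ear6 (x axis) that also occur in each of 6 Ear genes and pseudogenes (bars, percent). Ear1 and Ear2 share 40.6% and 40.2% with each other, and Ear6 shares no more than 3.92% with any of them.

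Epx, Prg2, Ear6, Ear2 and Siglecf were read in number in every library, while the receptor genes Il5ra and Ccr3 were close to 0. Over the 10 genes the summed level was 40.3 normalized counts in ST-HSC with ethanol, 41.8 in ST-HSC with 4OHT, 289.8 in MPP2 with ethanol and 155.4 in MPP2 with 4OHT. The 6 granule genes made up 71.9%, 81.3%, 95.1% and 91.6% of that sum. Il5ra had 2, 0, 13 and 5 reads in the same order, and Ccr3 had 1, 1, 2 and 0. Ear1 had 0 to 13 reads, and Prg3 was thin in the ST-HSC libraries. In bulk RNA, fewer cells of a type and less RNA per cell cannot be told apart.

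Colonies from MPP2 cells held far more granule transcript than colonies from ST-HSCs, with either treatment. Epx, Prg2, Prg3, Ear6 and Alox15 were higher in MPP2 than in ST-HSC cultures in both the ethanol and the 4OHT pair, and Epx, Prg2 and Ear6 passed the test of the shared cell type effect. Ear2 and Siglecf did not pass it. At 2-fold on the log2 scale, 6 of 7 were higher in MPP2 with ethanol and 5 of 7 with 4OHT, and 0 were lower. Of all tested genes 6.27% were higher and 0.862% lower with ethanol, and 5.39% higher and 1.71% lower with 4OHT. In the additive fit 9.88% of the 11370 genes passed in the higher direction (1123 genes) and 5.31% in the lower. Prg3 and Alox15 reached the level filter only through their MPP2 libraries, where they are high, so their cell type effect is given with no test and the counts over the 7 are not read as support.

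Epx, at chromosome 11, 87864000 to 87875536, stood at 10.6 normalized counts in ST-HSC with ethanol, 8.05 in ST-HSC with 4OHT, 94.9 in MPP2 with ethanol and 42.1 in MPP2 with 4OHT. Both MPP2 libraries were above both ST-HSC libraries. The MPP2 to ST-HSC ratio was 8.92 (95% counting interval 7.54 to 10.6) in ethanol and 5.23 (4.26 to 6.48) under 4OHT. In the additive model the log2 effect was 2.71 with a standard error of 0.22 (limma, adjusted p = 0.0059).

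Prg2, at chromosome 2, 84980461 to 84983632, followed Epx closely, with 9.94, 11.1, 97.7 and 47.7 normalized counts in the same order of libraries. The ratio of Prg2 to Epx within a library was 0.935, 1.38, 1.03 and 1.13. The MPP2 to ST-HSC ratio of Prg2 was 9.82 (8.26 to 11.8) in ethanol and 4.29 (3.59 to 5.15) under 4OHT, with a log2 effect of 2.64 (standard error 0.29, limma adjusted p = 0.0131).

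Prg3 starts 4583 bases downstream of the end of Prg2 on the same strand, at 84988215 to 84993886, and stood far lower. It had 6, 3, 88 and 30 reads, or 0.417, 0.216, 6.35 and 2.41 normalized counts. Its levels were high in both MPP2 libraries and near the limit of 3 reads in both ST-HSC libraries. The MPP2 to ST-HSC ratio was 15.2 (6.72 to 42.6) in ethanol and 11.2 (3.47 to 57.2) under 4OHT, so its size is known only within wide bounds. Its log2 effect in the additive fit was 2.46.

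Among the ribonucleases, Ear6 passed the test of the cell type effect and Ear2 did not. Ear6 stood at 5.42, 9.13, 68.3 and 44.2 normalized counts, and both MPP2 libraries were above both ST-HSC libraries. Its MPP2 to ST-HSC ratio was 12.6 (9.99 to 16.1) in ethanol and 4.84 (3.99 to 5.92) under 4OHT, with a log2 effect of 2.88 (standard error 0.32, limma adjusted p = 0.0133). Ear2 stood at 2.57, 5.39, 7.29 and 5.62 normalized counts. Its ratio was 2.83 (1.93 to 4.25) in ethanol but 1.04 (0.741 to 1.46) under 4OHT, and the shared effect of 0.70 did not pass (limma adjusted p = 0.175). Ear1 had 0, 1, 13 and 4 reads. With ethanol, putting the limit of 3 reads in place of 0 in ST-HSC gives an MPP2 to ST-HSC ratio of 4.50, which leaves out the counting error of the 13 reads. Under 4OHT, 4 reads against 1 gave a ratio of 4.47 with an interval that includes 1 (0.442 to 220). The ratio of Ear2 to Ear6 was 0.474 and 0.591 in the ST-HSC libraries and 0.107 and 0.127 in the MPP2 libraries.

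Siglecf, at chromosome 7, 43351341 to 43359531, was lowest in ST-HSC with 4OHT and did not show the MPP2 excess of Epx. Siglec-F is an inhibitory receptor for sialic acids, found on eosinophils and also on alveolar macrophages. It stood at 10.6, 6.83, 9.09 and 9.71 normalized counts, so MPP2 was below ST-HSC in ethanol (ratio 0.854, 0.670 to 1.09) and above it under 4OHT (ratio 1.42, 1.08 to 1.88). The shared cell type effect was 0.13 (limma adjusted p = 0.663). The ratio of Siglecf to Epx was 1.00 and 0.848 in the ST-HSC libraries and 0.0958 and 0.231 in the MPP2 libraries.

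Alox15, at chromosome 11, 70344152 to 70352031, encodes a lipoxygenase that oxidises arachidonic acid and is made by eosinophils and by some resident macrophages. It had 7, 13, 58 and 36 reads, or 0.487, 0.934, 4.18 and 2.89 normalized counts. Its MPP2 to ST-HSC ratio was 8.60 (3.92 to 22.3) in ethanol and 3.09 (1.60 to 6.35) under 4OHT. The log2 effect in the additive fit was 1.74.

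Il5ra and Ccr3 had few reads, so their ratios are known only within wide intervals or not at all. Il5ra, at chromosome 6, 106710357 to 106749037, had 13 reads in MPP2 with ethanol against 2 in ST-HSC with ethanol, a ratio of 6.74 (1.53 to 61.6). Under 4OHT it had 5 reads in MPP2 and 0 in ST-HSC, at least 1.86-fold higher. Ccr3, at chromosome 9, 124021972 to 124031689, had at most 2 reads in any library, and no fold is given.

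**Figure D2:**
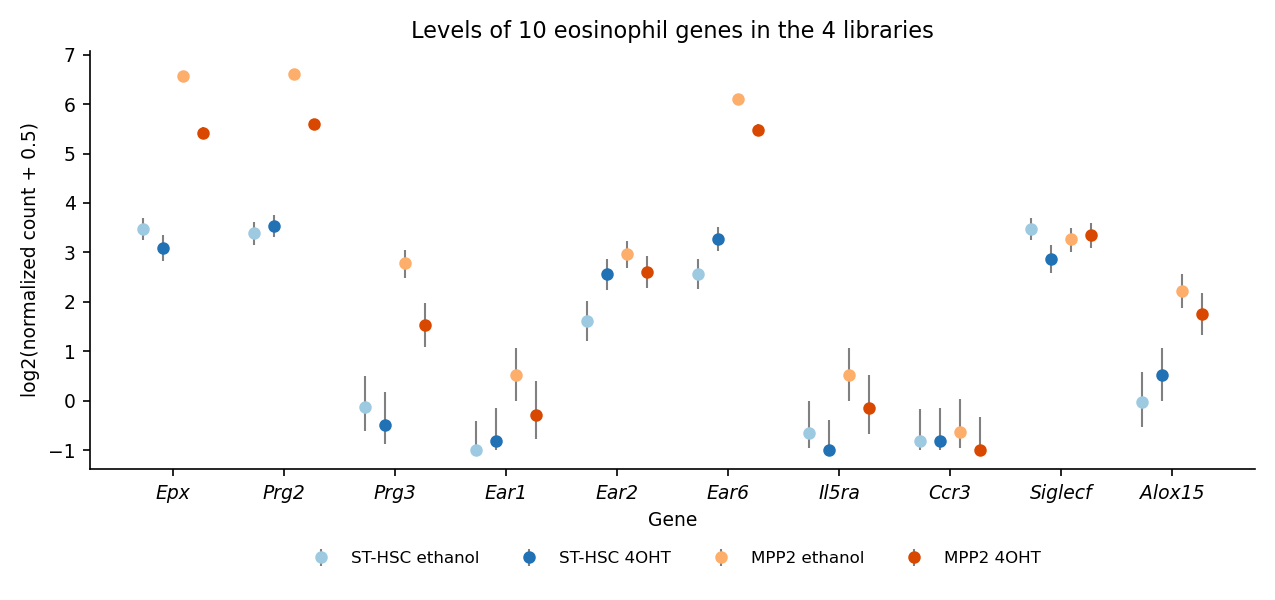
Level of each of the 10 genes (x axis) in the 4 libraries, as log2 of the normalized count plus 0.5 (y axis), with points for libraries and bars for exact Poisson 95% counting intervals. Epx, Prg2, Prg3 and Ear6 are highest in MPP2 with ethanol and second in MPP2 with 4OHT, while Siglecf spans 6.83 to 10.6 normalized counts and Il5ra and Ccr3 lie near the bottom.

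Per kilobase of exon, so that genes can be compared, Prg2 had the highest level of the 10 in every library, at 11.9, 13.3, 116.6 and 57.0 normalized counts per kilobase. Ear6 was the next in every library, at 5.74, 9.66, 72.3 and 46.8, and in ST-HSC with 4OHT the counting intervals of Prg2 and Ear6 overlapped, as did those of Ear6 and Ear2. In ST-HSC with ethanol the interval of Ear6 overlapped those of Epx and Ear2. Epx came after Ear6 in the MPP2 libraries, at 34.7 and 15.4. In ST-HSC with ethanol Epx (3.89), Siglecf (3.81) and Ear2 (3.58) had overlapping counting intervals, and in ST-HSC with 4OHT Ear2 (7.50) stood above Epx (2.94) and Siglecf (2.45). At the lower end in MPP2 with ethanol, the level per kilobase was 6.69 for Prg3, 3.26 for Siglecf, 1.70 for Alox15, 1.28 for Ear1, 0.262 for Il5ra and 0.0441 for Ccr3. Of these neighbours, Alox15 and Ear1 had overlapping intervals, and so had Il5ra and Ccr3.

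With 4OHT, the granule protein genes in MPP2 cultures stood at less than 50% of their level in ethanol. Epx, Prg2 and Prg3 were the 3 of 7 tested genes at least 2-fold lower, and 0 were at least 2-fold higher. Prg3 reached the level filter only through MPP2 with ethanol, where it is highest, so this count is not read as support. The count was 2 with an added constant of 2, where Prg3 had a log2 difference of -0.92. Of all tested genes 1.7% were at least 2-fold lower in this comparison and 1.32% higher. In ST-HSC cultures 0 of the 7 passed 2-fold in either direction, where 2.1% of all tested genes were higher and 0.545% lower.

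In MPP2 cultures the 4OHT to ethanol ratio was 0.444 (0.400 to 0.492) for Epx, 0.489 (0.443 to 0.538) for Prg2 and 0.379 (0.242 to 0.580) for Prg3. Among the ribonuclease genes it was 0.647 (0.581 to 0.719) for Ear6, 0.771 (0.560 to 1.06) for Ear2 and 0.342 (0.0813 to 1.11) for Ear1, the last from 13 and 4 reads. Alox15 had 0.690 (0.442 to 1.06) and Il5ra 0.428 (0.119 to 1.28). The intervals of Ear2, Ear1, Alox15 and Il5ra include 1. Siglecf had 1.07 (0.825 to 1.38). Summed, Epx, Prg2 and Prg3 had a ratio of 0.464 (0.433 to 0.497) and the 3 Ear genes 0.655 (0.592 to 0.724), and these counting intervals do not overlap. Over the 7 genes the median log2 difference was -0.62, beside -0.0024 over all tested genes. The 7 include Prg3, which reached the level filter only through MPP2 with ethanol, so this median is not read as support.

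In ST-HSC cultures the genes went different ways with 4OHT. Ear2 had a 4OHT to ethanol ratio of 2.09 (1.40 to 3.20), which on the log2 scale with its added constant (0.94) is under 2-fold, and Ear6 had 1.68 (1.26 to 2.26). Epx had 0.757 (0.588 to 0.972) and Siglecf 0.642 (0.491 to 0.834), both below 1. Prg2 had 1.12 (0.887 to 1.42), Prg3 0.517 (0.0836 to 2.42) from 6 and 3 reads, and Alox15 1.92 (0.712 to 5.68), and none of these intervals excludes 1. The 3 Ear genes summed had 115 reads in ethanol and 203 with 4OHT, a ratio of 1.82 (1.44 to 2.31). This sum does not depend on how reads were divided among these 3 copies. It can still depend on reads shared with copies outside it, such as the pseudogene Ear-ps9 (48.6% of Ear1's words) and Ear10 (34.4% of Ear2's). Over the 7 genes the median log2 difference was 0.16, beside -0.0037 over all tested genes.

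**Figure D3:**
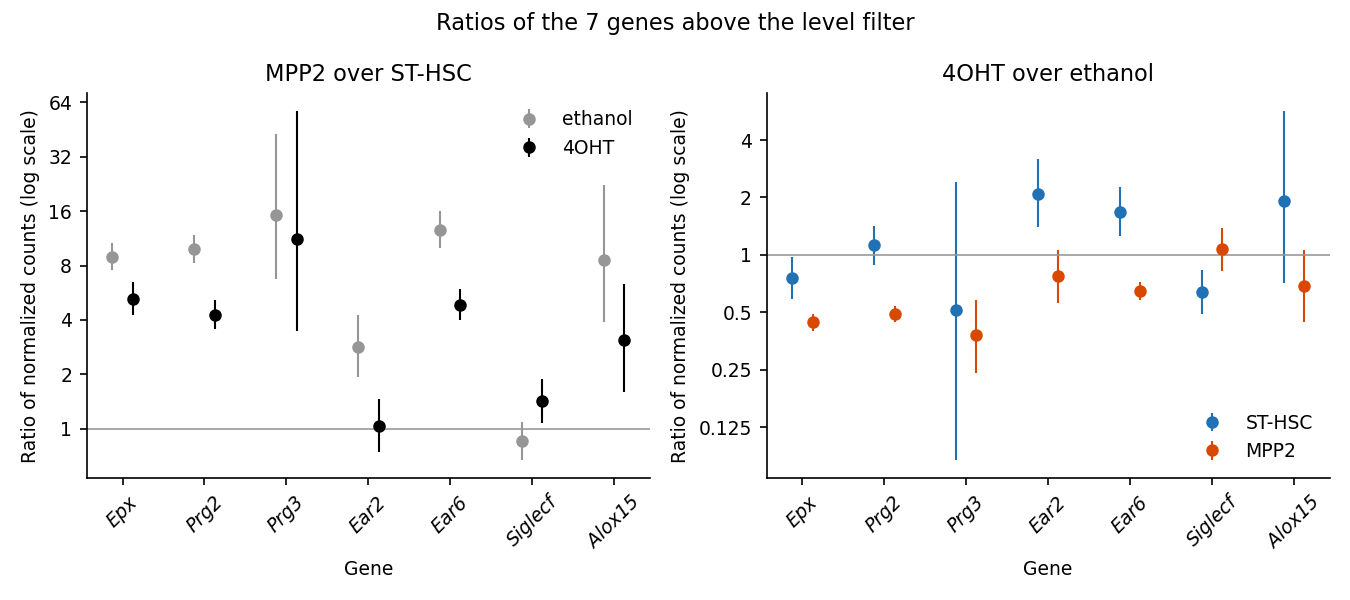
Ratios of normalized counts for the 7 tested genes (log scale) for MPP2 over ST-HSC in each treatment (left) and for 4OHT over ethanol in each cell type (right), with exact 95% counting intervals as bars. In the left panel Epx, Prg2, Prg3, Ear6 and Alox15 lie above 1 in both treatments, and in the right panel Ear6 lies above 1 in ST-HSC and below 1 in MPP2.

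The shared 4OHT effect did not pass the test for any of the 7 genes in limma. At an unadjusted limma p under 0.05 there were 2 of 7, beside 1615 of all 11370 tested genes. Epx had a log2 effect of -0.77 (standard error 0.22, limma adjusted p = 0.236) and Prg3 had -0.80. Both were below 0 in 2 of 2 cell types, though for Prg3 the ST-HSC difference rests on 6 and 3 reads. Prg3 reached the level filter only through MPP2 with ethanol, where it is highest. Its effect is therefore given with no test, and the count of 2 is not read as support. In that fit 5 genes (0.044%) passed in the higher and 1 (0.0088%) in the lower direction. The call depends on the variance model. With a mean-variance trend in limma Epx passed at an adjusted p of 0.0146, and with edgeR's quasi-likelihood test on recovered reads at 0.0139, in a range of 0.0139 to 0.350 over the alternatives. The trend fit called 2.96% of all genes higher and 2.3% lower, and edgeR 2.47% and 1.86%. Prg2, Prg3, Ear2, Ear6, Siglecf and Alox15 passed in neither.

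Gata1 and Gata2 were the transcription factors in the list of eosinophil regulators that passed 2-fold with 4OHT. Of 12 in the list, all measured, 3 passed the shared cell type test in the higher and 1 in the lower direction, beside 9.88% and 5.31% of all genes. Gata1 reached the level filter only through its MPP2 libraries, so this count is not read as support. Gata1, which is required for eosinophils as well as red cells, stood at 2.09, 0.791, 21.1 and 9.71 normalized counts, at least 2-fold lower with 4OHT in both cell types on the log2 scale, though it did not pass the shared test. Gata2, which acts in mast cells, stem cells and eosinophil precursors, stood at 25.3, 14.2, 205.6 and 71.2 (log2 -0.81 and -1.52 with 4OHT). Xbp1, a secretory factor that eosinophils need to mature, and Spi1, which encodes PU.1, were near level, at log2 0.04 and 0.12 for Xbp1 and 0.04 and 0.28 for Spi1. With 4OHT the list had a median log2 difference of -0.23 (ST-HSC) and 0.11 (MPP2).

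The upstream sequence of the genes was searched for the letters GATAA, a core of the sites that GATA factors bind, on both strands. Of the 8 members with an entry in the RefSeq promoter table (GRCm38.p6), 3 held it within the 250 bases before the start site. Counted by gene, 25.5% of the 27025 genes with an entry held it in any promoter. Counted by promoter, it was 22.6% of all 32851. The 3 members are shown with the match in capitals, as TTATC where it lies on the opposite strand. They cover Prg3 at chr2:84988066-84988145 on the plus strand, Il5ra at chr6:106749069-106749148 on the minus strand and Ccr3 at chr9:124021891-124021970 on the plus strand.
Prg3: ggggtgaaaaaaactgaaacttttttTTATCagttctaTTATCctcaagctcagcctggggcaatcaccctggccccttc
Il5ra: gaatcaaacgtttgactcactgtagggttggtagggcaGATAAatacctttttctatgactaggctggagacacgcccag
Ccr3: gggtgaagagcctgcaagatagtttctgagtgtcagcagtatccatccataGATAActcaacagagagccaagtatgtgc

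The last match lies 111 bases before the start site in Prg3, 73 in Il5ra and 29 in Ccr3. The windows of Epx, Ear1, Ear2, Ear6 and Siglecf did not hold these letters. Of the 3 genes with a match, only Prg3 was read in number here.

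Receptor partners and signalling genes stood above the trace of Il5ra, at unlike levels. The lowest, Il3ra, stood at 7.44, 5.75, 11.9 and 12.7 normalized counts, and Il5 was not in the table. Of 17 genes of the common beta chain receptors and their signalling, 16 were measured, and 0 passed 2-fold with 4OHT in either cell type. Of all tested genes 2.1% were higher and 0.545% lower in ST-HSC cultures, and 1.32% and 1.7% in MPP2 cultures. Csf2rb, the common beta chain itself, stood at 693.8, 732.8, 1053 and 924.5 normalized counts. Pim1, a survival kinase induced by these receptors, stood at 430.7, 426.0, 344.8 and 358.8. Of 5 CCR3 ligands 3 were in the table and 1 was tested, Ccl7, which also draws monocytes. Ccl7 stood at 0.626, 13.9, 2.53 and 10.3 (log2 3.67 and 1.84 with 4OHT). It reached the level filter only through its 4OHT libraries, where it is high, so this difference is not read as support. Ccl5 stood at 0.0695, 0.791, 0.289 and 1.52.

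Relatives of the members showed other patterns. Of 22 further RNase A family genes 5 were in the table and 2 were tested. Rnase4 stood at 2.85, 3.16, 4.47 and 6.26 normalized counts and Rnase6 at 0.487, 1.29, 1.66 and 1.60. Mpo, the peroxidase of neutrophils and monocytes and a relative of Epx, stood at 4549, 4357, 1971 and 2484, so it was lower in MPP2 than in ST-HSC cultures with ethanol (log2 -1.21) where Epx was higher. In the Siglec list, which holds Siglecf itself, 7 of 9 were tested and 1 passed 2-fold with 4OHT. This was Siglec1, higher in ST-HSC cultures, where 2.1% of all tested genes were higher. Siglec1, a macrophage receptor, stood at 0.348, 2.73, 3.90 and 2.09, Cd33 at 89.1, 81.7, 213.8 and 207.4, and Siglece at 22.0, 24.9, 40.6 and 50.9.

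Among 12 lipoxygenase and leukotriene genes 7 were tested, and 1 passed 2-fold with 4OHT. Alox8 stood at 1.53, 0.791, 10.8 and 3.37 normalized counts, lower in MPP2 cultures with 4OHT (log2 -1.54), where 1.7% of all tested genes were lower. Alox5, which starts leukotriene synthesis, stood at 231.4, 209.3, 490.4 and 451.0, and Lta4h at 768.4, 599.3, 591.7 and 598.3.

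Markers of other blood cells moved beside the eosinophil genes. Mast cell and basophil genes, 13 of 14 in the table, had summed levels of 216.0, 167.4, 1691 and 606.8 normalized counts in the order of libraries used above. Of 12 tested, 9 were at least 2-fold lower with 4OHT in MPP2 cultures (1.7% of all tested genes) and 5 in ST-HSC cultures (0.545%), with medians of -1.64 and -0.86. Tpsb2 and Il4, both in the count of 9, reached the level filter only through MPP2 with ethanol. So neither that count nor the median of -1.64 is read as support. Cpa3, mast cell carboxypeptidase, stood at 19.5, 11.5, 293.3 and 70.9, and the basophil protease gene Mcpt8 at 45.8, 21.6, 427.6 and 123.3. Erythroid genes, 8 of 10 in the table, summed to 0.695 and 0.934 in ST-HSC and to 139.2 and 10.0 in MPP2 cultures, with Hba-a2 and Slc4a1 at 0 reads in all libraries but MPP2 with ethanol.

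With 4OHT the neutrophil and macrophage lists had other medians. The 14 neutrophil genes had median log2 differences with 4OHT of -0.37 (ST-HSC) and 0.08 (MPP2), and 0 passed 2-fold in either. Beside this, 2.1% of all tested genes were higher and 0.545% lower in ST-HSC cultures, and 1.32% and 1.7% in MPP2 cultures. Between cell types 8 of the 14 passed the shared test higher in MPP2 and 4 lower, beside 9.88% and 5.31% of all genes. Of the 12 mast cell and basophil genes 10 passed higher and 0 lower. Retnlg, Cma1, Tpsb2, Il4 and Fcer1a reached the level filter only through their MPP2 libraries, so these counts are not read as support. Monocyte and macrophage genes, 12 of 14 in the table, summed to 1240 and 1735 in ST-HSC and to 1517 and 2329 in MPP2 cultures, with medians of 0.75 and 0.62 over 9 tested. Major basic protein is also known from basophils, and Ear2, Siglecf and Alox15 from macrophages or monocytes. The part of these cells in the values above was not tested.

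**Figure D4:**
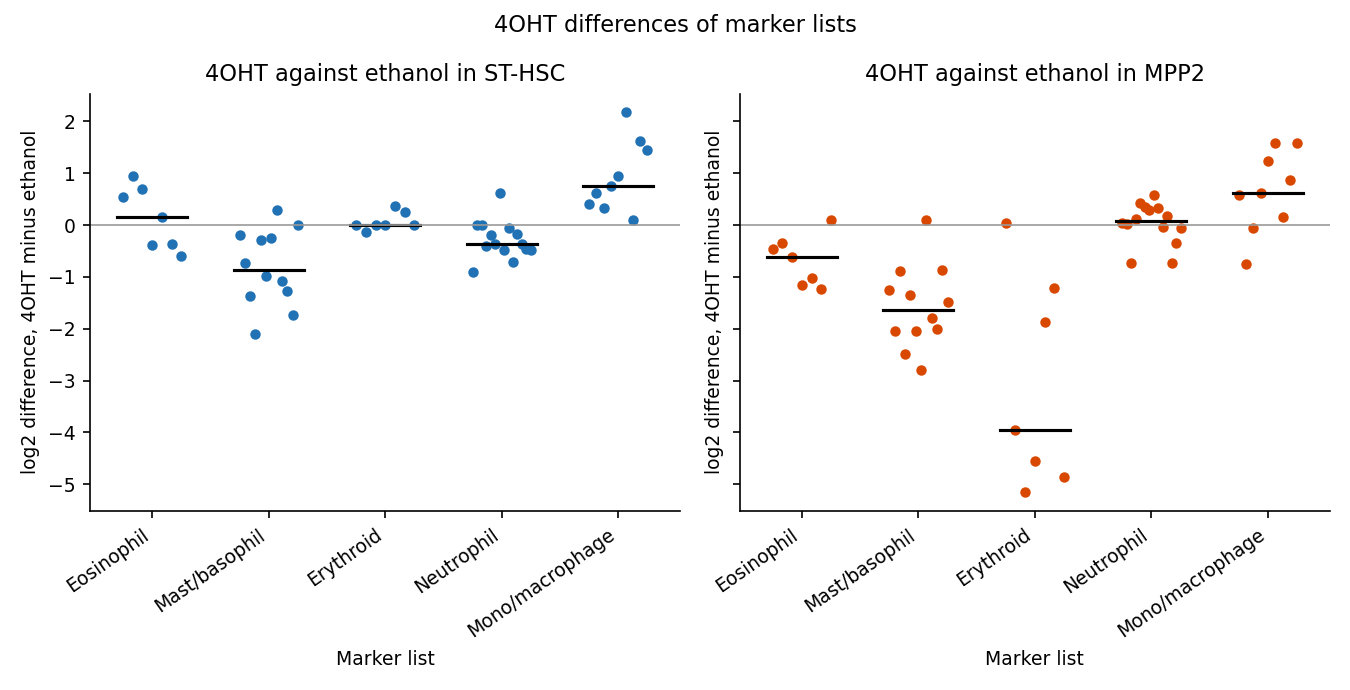
Log2 difference between 4OHT and ethanol (y axis) for the tested genes of 5 marker lists (points, with the list median as a line) in ST-HSC (left) and MPP2 cultures (right). In MPP2 cultures the eosinophil median is -0.62, between -1.64 for mast cell and basophil genes and 0.08 for neutrophil genes. The eosinophil, mast cell and basophil, and erythroid lists hold genes that reached the level filter only through MPP2 with ethanol, so their medians are a description only.

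The members were not equally alike in pattern. Likeness was measured as the distance over the 4 libraries between a gene's log2 values, centred on their own mean, and the mean of the 7 centred member profiles. Alox15 lay nearest to that mean at 0.353, then Prg3 at 0.775, Prg2 at 0.786, Epx at 0.956, Ear6 at 1.06, Ear2 at 1.34 and Siglecf at 1.92. Among 8590 other genes with at least 10 normalized counts in their highest library, the 8 nearest included Cxcr2 (0.199), Slc22a23 (0.235), Ccl6 (0.260), Prkca (0.271), Cyp4f18 (0.322), L1cam (0.338) and Lrrc32 (0.342). Cxcr2, a chemokine receptor of neutrophils and a gene of the neutrophil list, stood at 8.48, 8.48, 37.9 and 22.5 normalized counts, and Ccl6, a chemokine of myeloid cells, at 426.5, 557.2, 2211 and 1644. With 4 values per gene such nearness is a description of level only.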

How the data were processed

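Per the labels' protocols, total RNA (TRI Reagent LS, RNeasy) went into rRNA-depleted, directional MGIEasy libraries, 200 ng each. Trimmomatic 0.36, Bowtie2, RSEM, edgeR and mm10 are named in the submitters' processing notes, with no roles or annotation. The authors deposited 1 table of normalized values, a signal with 1 column per library. All 57292 values lay within 1e-06 reads of a whole multiple of the column's smallest value, taken as 1 read. That value matches counts scaled to the library total times edgeR's TMM factor, recomputed as 1.00, 1.02, 1.01 and 0.966. Recovered whole reads gave counting intervals (exact conditional binomial for ratios, exact Poisson for levels). The labels name no molecular barcodes, so intervals and the limit of 3 reads cover counting error alone. The lowest sum of reads of a listed gene was 4. How reads shared by the Ear copies were divided is not stated.

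Log2 differences were taken after adding 0.5, which shrinks those of low genes. Ratios are of the values themselves. Limma 3.58.1 fitted cell type and treatment additively to the 4 libraries (1 residual degree of freedom per gene, the difference between cell types serving as error), with Benjamini-Hochberg adjustment over 11370 genes at 0.05. Nothing says whether the libraries came from separate animals. Both coefficients share 1 residual. Alternatives changed the constant, the filter, the scaling, the GC trend (96.2% of tested genes had a value), the variance model and the tool (edgeR 4.0.16, DESeq2 1.42.0 size factors). Genes were named by rule: all members, from each list the 2 of highest level and those past 2-fold with 4OHT (at most 6, of which some are printed), and the 8 nearest in pattern (1 of them is not reported here), leaving out predicted and small RNA genes. Members and lists were chosen with earlier results of these data known. Coordinates, exon lengths and shared words come from GENCODE release M21. R 4.3.3, Python 3.11.15 and Biopython 1.88 were used.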

Additional observations from a re-analysis of the deposited data

Results flagged for a closer look

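For 5 of the 7 tested genes the 4OHT difference had opposite signs in the cell types, each on 1 library per group, and the difference between cell types was not tested. The share of all tested genes with opposite signs is not given, so this count is a description only. For Ear6 the log2 values were 0.70 (ST-HSC) and -0.62 (MPP2), and Ear6 was the only one of the 5 genes whose counting interval excluded no change in both. Ear2 had 0.94 and -0.35, and Alox15 had 0.54 and -0.47. Prg2 had 0.16 and -1.03. Siglecf went the other way, with -0.60 in ST-HSC and 0.09 in MPP2 cultures. Siglecf also changed sign between the treatments when cell types were compared, with MPP2 minus ST-HSC at -0.22 in ethanol and 0.48 under 4OHT.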

How the results depend on the processing

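No paired analysis was possible because each group has 1 library and the labels give no replicate numbers. The additive fit takes cell type and treatment as terms, which is not a pairing of replicates. Of 296 values of single members under the alternatives, 291 kept their direction. The 5 that did not were all close to 0. Ear2 in MPP2 against ST-HSC under 4OHT was -0.0175 scaled by total reads, and the shared 4OHT effects of Ear6 and Alox15 were -0.0112 and -0.0504 with a constant of 2 and -0.13 and -0.11 with edgeR. The cause was not tested.

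With 4OHT in MPP2 the members at least 2-fold lower were 2 in place of 3 with a constant of 2, where Prg3 was -0.92, and with a mean of at least 5, where Prg3 is not tested. Other counts of members also moved. In ST-HSC cultures with 4OHT, 1 member (Ear2) was at least 2-fold higher with a constant of 0.1 or the GC trend removed. Under 4OHT, 3 members were at least 2-fold higher in MPP2 with a constant of 2. With a mean of at least 5, which leaves out Prg3 and Alox15, 3 were higher and the shared cell type test called 3. The shared 4OHT effect had 1 lower (Epx) with the limma trend or edgeR. Medians over the members for MPP2 against ST-HSC were 1.79 in ethanol and 0.99 under 4OHT with a constant of 2, and 1.89 and 1.05 with no filter.

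Counts over all genes moved more. With a constant of 2, at least 2-fold higher and lower were 139 and 15 in ST-HSC with 4OHT (239 and 62 as reported), 76 and 109 in MPP2 (150 and 193), and 387 and 89 between cell types under 4OHT (613 and 194), and 49 were lower between cell types in ethanol (98). With a mean of at least 5, in the same order, they were 125 and 30, 83 and 79, and 370 and 113, with 400 and 61 in ethanol (713 and 98). With a constant of 0.1, 108 were lower in ST-HSC and 149 between cell types in ethanol. For the shared 4OHT effect (5 higher and 1 lower as reported), 0 passed in either direction with a constant of 0.1, no filter, total reads or median-of-ratios scaling. With a constant of 2 there were 180 higher and 48 lower, with a mean of at least 5 162 and 68, with the limma trend 337 and 261, and with edgeR 281 and 211. At an unadjusted p under 0.05 limma had 1615. For the shared cell type effect (1123 higher and 604 lower) these were 674 and 178 with a constant of 0.1, 490 and 69 with no filter, 1899 and 1862 with the trend and 1873 and 1589 with edgeR, with 1294, 1395 and 394 lower under a constant of 2, a mean of at least 5 and median-of-ratios scaling. The cause of these moves was not tested, beyond the fewer genes tested under a stricter filter. Depth limits Il5ra, Ccr3, Ear1 and the ST-HSC values of Prg3.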
